A study of Homo sapiens with 4 samples.

Results

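The ATP-binding cassette (ABC) transporter genes were taken as every gene in the count files whose symbol is ABC, a subfamily letter from A to G and a number, which gave 46 of 50868 genes. These genes were read in A549 cells, a human lung adenocarcinoma line, in 2 libraries of control cells and 2 libraries of cells overexpressing USP12, a ubiquitin-specific protease that removes ubiquitin from other proteins. The study refers to its control cells as EV and describes pLVX lentiviral vectors for expressing tagged USP12, and whether either line was a clone or a pool is not given in the sources used here. The comparison asks which transcripts differ when USP12 is raised in the same tumour cell line. The labels do not say that the replicates came from separate cultures, so p-values measure only the spread between these libraries, which may be technical.

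ABC proteins bind and hydrolyse ATP in paired nucleotide-binding domains, and most of them use that energy to carry lipids, bile salts, conjugates, metabolites or drugs across a membrane. Members of the ABCA and ABCG subfamilies are known chiefly for lipid and sterol export, members of ABCB and ABCC for export of drugs and glutathione or glucuronide conjugates, and members of ABCD for import of acyl-CoA into peroxisomes. ABCE and ABCF proteins have no membrane span and act on ribosomes and translation. In lung, ABCA3 loads surfactant phospholipid into the lamellar bodies of alveolar type II cells, and in lung tumour lines ABCC1, ABCC2, ABCC3 and ABCG2 are studied as drug efflux pumps.

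The libraries held 14280081 to 16305356 counts. USP12 (chr13:27066156-27171811 in GRCh38) was at 15.2 and 34.4 CPM (a gene's count per 1e6 counts of its library, with TMM factors applied to the totals) in control replicates 1 and 2 and at 1745 and 2235 CPM in USP12 replicates 1 and 2, which placed both USP12 libraries far above both controls. Its log2 fold change was 6.32 (SE 0.57) with an adjusted p of 0.0975 by edgeR's quasi-likelihood test, which was the smallest over the 15222 genes tested. The same test gave no gene an adjusted p under 0.05 in either direction, while 692 genes were lower and 463 higher at an unadjusted p under 0.05. The log2 ratio of the 2 control libraries had an SD of 1.32 over all genes tested, against 0.62 for the 2 USP12 libraries. The column header of control replicate 1 carries a different date-like prefix from that of the other 3 libraries, and values that change by much without that library are given both ways.

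All 7 epithelial markers had counts, and they summed to 12901 and 7476 CPM in the controls against 7319 and 6796 CPM with USP12. Among them KRT19 was at 5770 and 2055 counts in the controls and 955 and 807 counts with USP12. EPCAM, KRT8 and KRT18 were also lower in both USP12 libraries than in both controls. KRT7, at 40698 to 43560 counts, CDH1 and CLDN4 overlapped between groups. Of the 9 alveolar type II markers, SFTPA2 and SFTPB were at 0 in every library, SFTPA1 and SFTPC reached 1 count, SFTPD reached 19 and NAPSA 26, and LAMP3 was at 26 and 101 counts in the controls and 6 and 4 with USP12. Their summed level was 7.49 and 6.21 CPM in the controls and 1.58 and 1.66 CPM with USP12, so these groups did not overlap. LAMP3 alone gave 5.6 CPM of the sum in control replicate 2. SLC34A2 had 23 counts in control replicate 1 and 0 in every other library, and NAPSA overlapped between groups. Among leukocyte markers CD3E was at 0 and PTPRC reached 1 count, while CD68 was at 686 to 1044 counts, CD14 at 85 to 424 and LYZ at 11 and 27 counts in the controls and 1 and 3 with USP12. Among fibroblast markers DCN was at 0 and COL1A1 at 47 to 262 counts. Summed fibroblast markers ranged from 2.94 to 18.0 CPM in the controls and from 16.7 to 20.9 CPM in the USP12 libraries, and summed leukocyte markers from 53.0 to 112 and from 59.8 to 76.9 CPM. Summed endothelial markers were at 8.59 to 15.4 CPM in the controls and 0.504 to 1.45 CPM in the USP12 libraries, with CDH5 at 136, 96, 2 and 5 counts and PECAM1 at 68, 56, 4 and 14 counts in control replicates 1 and 2 and USP12 replicates 1 and 2. The part of these markers in the values of the ABC genes was not tested. The labels name a single cell line for every library. In such bulk RNA, fewer cells expressing a gene and less RNA per cell cannot be told apart.

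Of the 46 ABC genes, 31 passed the filter on low counts and were tested. ABCA9, ABCB11, ABCC13, ABCD2, ABCG5 and ABCG8 had 0 counts in all 4 libraries, which allows a level of up to 0.166 to 0.227 CPM (3 counts, a floor that covers counting error only). ABCB11 is the bile salt export pump of hepatocytes, ABCG5 and ABCG8 form the sterolin dimer that returns plant sterols to gut and bile, and ABCC13 is annotated as a pseudogene, unlike the other 45 members. The other 9 untested genes held between 1 and 12 counts in their highest library. ABCB1, the multidrug pump P-glycoprotein, belonged to these, with 3 and 5 counts in the controls and 4 and 0 counts in the USP12 libraries. At this depth no difference in ABCB1 was detectable.

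Levels between genes were compared as CPM per kilobase of annotated exon, averaged over the 4 libraries. ABCC3, a basolateral exporter of glucuronides and bile salts, was highest at 75.6 CPM per kb (64.6 to 93.2 over libraries) and alone gave 27.5% of the summed level of the 46 genes. ABCC1, an exporter of glutathione conjugates, followed at 37.1 CPM per kb (29.6 to 44.3), and its range lay wholly below that of ABCC3. ABCC2, the apical exporter of conjugates, stood at 27.0 CPM per kb, and its range of 9.43 to 35.9 overlapped those of ABCC1, ABCF2 (24.6, range 20.2 to 26.6) and ABCF1 (20.7, range 17.5 to 22.4). These 5 genes gave 67.4% of the summed level. Next came ABCA3 at 11.1 CPM per kb (9.76 to 14.8), whose range overlapped those of its next neighbours ABCC4 (9.33, range 5.11 to 12.9), ABCE1 (9.17, range 4.56 to 13.6) and ABCA2 (8.78, range 4.94 to 16.6). ABCB6 had the highest mean of the ABCB genes at 4.79 CPM per kb (3.83 to 5.93), and its range overlapped that of ABCB8 (4.24, range 3.39 to 6.17). ABCG2 at 4.83 (2.79 to 8.2) and ABCG1 at 4.47 CPM per kb (3.06 to 6.02) had overlapping ranges, with ABCG2 the higher in control cells (means of 6.85 and 5.1) and ABCG1 in USP12 cells (2.8 and 3.85). The tested gene with the lowest level was ABCC8, the sulphonylurea receptor of ATP-sensitive potassium channels, at 0.0574 CPM per kb (0.0167 to 0.0956). Its range overlapped those of ABCA8 (0.0591 to 0.175) and ABCB4 (0 to 0.206). Its annotated exon length of 27.254 kb, the longest of the members, lowers this value.

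**Figure D1:**
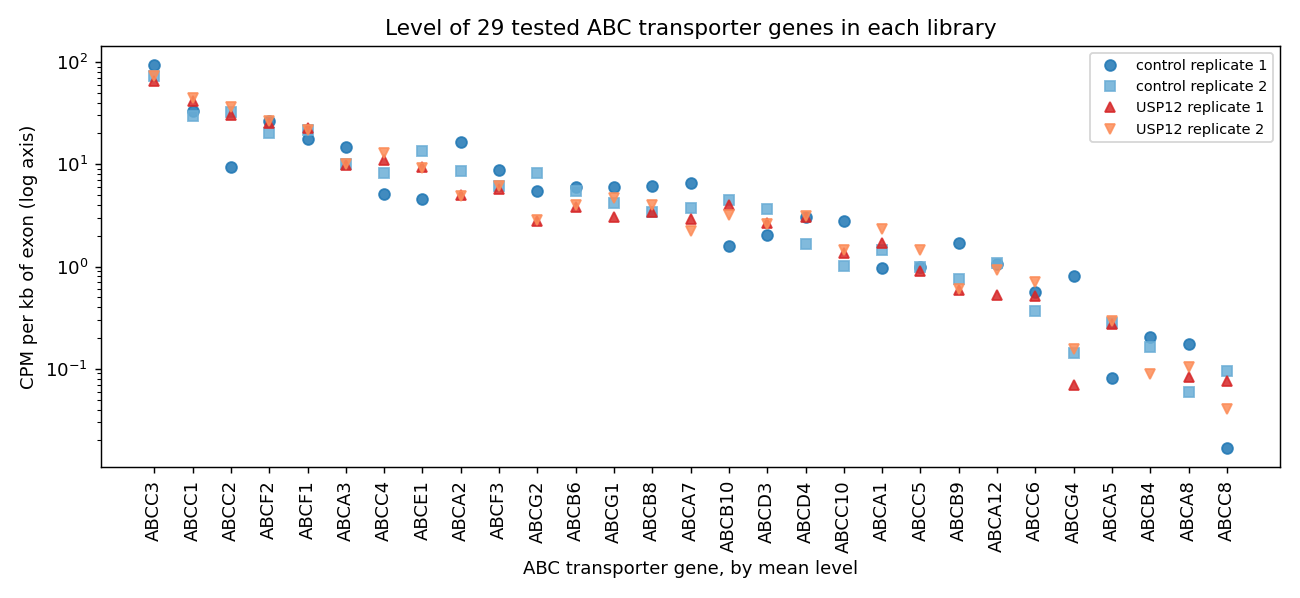
Level of 29 of the 31 tested ABC genes in each library, in CPM per kb of exon on a log axis, ordered by the mean over 4 libraries, with 1 point per library. ABCC3 stands highest at a mean of 75.6 and ABCC8 lowest at 0.0574, and control replicate 1 (dark blue circles) departs from the other libraries at ABCC2 and ABCA5, where it is lowest; ABCB4 has 0 counts in USP12 replicate 1, which a log axis cannot show.

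The summed level of the family did not separate the groups. Over the 46 genes it was 2298 and 2095 CPM in the controls and 2039 and 2224 CPM in the USP12 libraries, with overlapping groups. The ABCC subfamily made up most of it, at 1340 and 1305 CPM in the controls and 1343 and 1510 CPM in the USP12 libraries. Summed ABCG genes were at 72.7 and 72.4 CPM in the controls and 34.8 and 45.2 CPM with USP12, and summed ABCA genes at 394 and 244 against 191 and 196 CPM. Summed ABCB genes were at 135 and 104 against 90.3 and 94.5 CPM, and summed ABCF genes at 260 and 233 against 261 and 265 CPM. The 2 USP12 libraries lay below the 2 controls for ABCA, ABCB and ABCG and above them for ABCC and ABCF. For ABCC and ABCF the nearest libraries of the groups were almost level, at 1340 and 1343 CPM and at 260 and 261 CPM. With 2 libraries in each group the smallest two-sided p of an exact permutation test is 0.333, so that test cannot reach a threshold of 0.05, and no other test was run on the summed levels.

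No ABC gene passed an adjusted p of 0.05 in either direction (edgeR quasi-likelihood test, 0 of 31, against 0.0% of all genes tested), and the smallest adjusted p among them was 0.484. The same count of 0 was obtained in both directions without the filter on low counts, where 1.46% of all genes were lower and 0.673% higher, with DESeq2's Wald test (1.79% and 0.874%), with edgeR's exact test (1.72% and 1.1%) and with the replicate number as a block (1.65% and 1.01%). At an unadjusted p under 0.05, 2 of 31 (6.45%) were lower, against 4.55% of all genes, and 0 of 31 were higher, against 3.04%. The same 2 genes, ABCA2 and ABCG2, met a criterion of an unadjusted p of 0.05 or less with a log2 fold change of at least 1 in size, against 4.41% of all genes lower and 2.92% higher. The study gives this criterion for lower genes without saying whether its p was adjusted, and it is applied here to both directions and to the unadjusted p. Both USP12 libraries lay below both controls in 7 of 31 ABC genes (22.6%), against 17.0% of all genes, and above both controls in 4 of 31 (12.9%), against 19.5%. The median log2 fold change of the 31 genes was -0.27, with that of all genes at -0.06, and without control replicate 1 these were -0.01 and 0.02. With all 4 libraries 58.1% of the ABC genes had a negative estimate, against 53.6% of all genes.

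**Figure D2:**
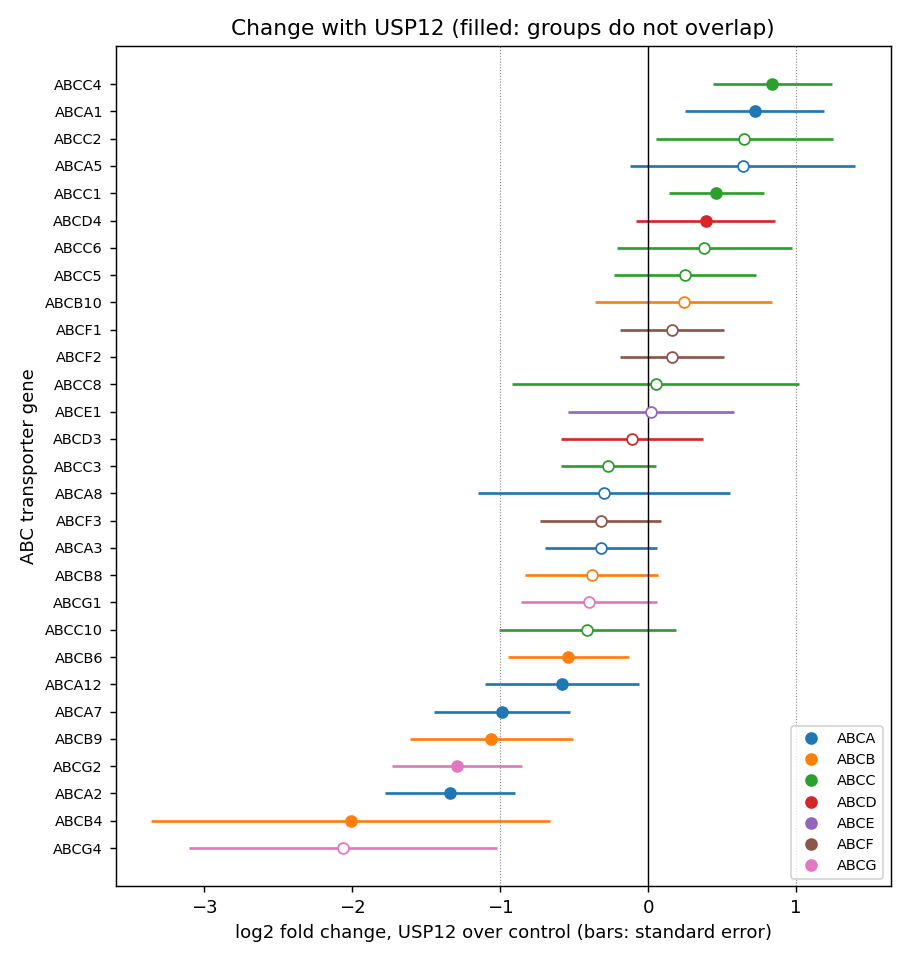
Log2 fold change of USP12 over control cells for 29 of the 31 tested ABC genes, with bars of 1 standard error and colours for the 7 subfamilies; filled points are genes whose 2 USP12 libraries both lie outside the range of the 2 controls. Estimates run from -2.06 for ABCG4 to 0.84 for ABCC4, and the dotted lines mark the log2 fold change of 1 in size used in the criterion.

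The proximal promoters of 4 ABC genes are shown beside the values that follow, a choice made after those values were seen. ABCA2 and ABCG2 met the criterion, and ABCC4 and ABCA1 had the largest positive estimates among genes with non-overlapping groups. Each sequence is the 250 bases before the RefSeq start of the main transcript, 5′ to 3′ on the strand of the gene, which is the minus strand for all 4 (GRCh38.p14). Capitals mark the letters GGGCGG (GC box), GCGTG (core of the xenobiotic response element, bound by AHR) and TGACNNNGC (antioxidant response element, bound by NRF2), or their reverse complements.
ABCA2, chr9:137028238-137028487: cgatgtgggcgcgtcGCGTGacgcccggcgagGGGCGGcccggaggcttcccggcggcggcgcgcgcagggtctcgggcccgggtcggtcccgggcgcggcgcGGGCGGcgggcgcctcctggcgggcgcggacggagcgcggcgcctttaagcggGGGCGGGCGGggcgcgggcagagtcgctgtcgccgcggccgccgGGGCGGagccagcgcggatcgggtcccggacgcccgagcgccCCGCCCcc
ABCG2, chr4:88158640-88158889: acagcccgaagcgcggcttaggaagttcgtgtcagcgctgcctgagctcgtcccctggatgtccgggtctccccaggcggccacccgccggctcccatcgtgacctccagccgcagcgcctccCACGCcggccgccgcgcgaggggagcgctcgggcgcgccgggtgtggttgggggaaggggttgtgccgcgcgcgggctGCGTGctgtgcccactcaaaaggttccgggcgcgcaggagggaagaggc
ABCC4, chr13:95301452-95301701: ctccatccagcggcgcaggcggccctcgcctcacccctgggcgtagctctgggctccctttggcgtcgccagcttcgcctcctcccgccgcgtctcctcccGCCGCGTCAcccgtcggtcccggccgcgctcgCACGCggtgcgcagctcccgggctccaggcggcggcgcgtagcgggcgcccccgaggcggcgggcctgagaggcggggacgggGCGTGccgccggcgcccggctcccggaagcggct
ABCA1, chr9:104928156-104928405: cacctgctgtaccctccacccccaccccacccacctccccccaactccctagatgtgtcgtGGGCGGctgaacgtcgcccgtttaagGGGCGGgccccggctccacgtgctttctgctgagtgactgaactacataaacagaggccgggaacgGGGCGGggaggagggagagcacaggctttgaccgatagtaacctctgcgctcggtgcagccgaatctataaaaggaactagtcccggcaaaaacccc

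The GC content of these promoters was 85.6% for ABCA2, 73.6% for ABCG2, 80.4% for ABCC4 and 61.6% for ABCA1. ABCA2 held 6 matches to the GC box, of which a pair overlaps by 2 bases, and 1 to the xenobiotic core. ABCG2 held 2 xenobiotic cores, ABCC4 held 2 xenobiotic cores and 1 antioxidant element, and ABCA1 held 3 GC boxes. In all, 2 promoters are listed for ABCA2 and 5 for ABCG2, and their matches differ. The other ABCA2 promoter, chr9:137028923-137029172, held 0 GC boxes, 1 xenobiotic core and 1 antioxidant element at 65.2% GC. For ABCG2, those at chr4:88158860-88159109 and chr4:88158910-88159159 held 2 GC boxes each, and those at chr4:88231627-88231876 and chr4:88159291-88159540 held 0. Over all 35116 promoters of this table, both strands searched, 42.6% hold the GC box, 32.2% the xenobiotic core and 10.9% the antioxidant element, and over the 53 promoters listed for 35 of the 46 ABC genes the shares were 47.2%, 39.6% and 17.0%. The E-box CACGTG stood in 17.0% of the ABC promoters and in 6.34% of all promoters, CCAAT in 20.8% and 32.0%, and the kappaB motif in 1.89% and 5.21%. A match is a description of the letters and not a site. The median GC content was 66.6% over the 34 promoters of tested ABC genes, 46.0% over the 19 promoters of untested ones and 58.0% over all promoters.

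Among the genes for lipid, sterol and phospholipid export, 8 were tested, and 7 of them had negative estimates, against 53.6% of all genes. Their median log2 fold change was -0.79, or -0.43 without control replicate 1, and 0 passed an adjusted p of 0.05. Both USP12 libraries lay below both controls in 4 of them and above in 1, against 17.0% and 19.5% of all genes. ABCA2 (ENSG00000107331, chr9:137007234-137028915, minus strand), an endosomal and lysosomal transporter that acts on sterol and sphingolipid trafficking, was at 191 and 98.7 CPM in the controls and 57.5 and 56.8 CPM in the USP12 libraries. Both USP12 libraries lay below both controls, and the 2 controls differed more from each other than the USP12 libraries did. The level was 2.53-fold lower with USP12 (log2 fold change -1.34, SE 0.44, unadjusted p 0.0219, adjusted p 0.484 by edgeR). Without control replicate 1 the estimate was -0.79 with an adjusted p of 0.0487, without control replicate 2 it was -1.71 with an adjusted p of 0.00356, and without USP12 replicate 1 or 2 it was -1.33 or -1.32 with an adjusted p of 1.0 each time.

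ABCA7, a relative of ABCA1 that moves phospholipid and acts in phagocytosis, was at 62.5 and 35.9 CPM in the controls and 28.1 and 21.4 CPM with USP12. The groups did not overlap, and the log2 fold change was -0.99 (SE 0.46, adjusted p 0.74 by edgeR), or -0.54 without control replicate 1. ABCA12, the keratinocyte transporter of glucosylceramide, had nearly equal controls of 10.3 and 10.4 CPM, above both USP12 libraries at 5.04 and 8.8 CPM, for a log2 fold change of -0.58 (SE 0.52), which was -0.22 without USP12 replicate 1 and -1.04 without USP12 replicate 2. ABCB4, the phosphatidylcholine floppase of bile canaliculi, lay near the limit of detection. Its counts were 21 and 23 in the controls and 0 and 10 with USP12, which gave a log2 fold change of -2.01 (SE 1.35, adjusted p 0.872 by edgeR), and -1.02 without USP12 replicate 1.

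ABCA1, which loads cholesterol and phospholipid onto lipid-poor apolipoprotein A-I, was the single member of this group with a positive estimate. It stood at 11.0 and 16.5 CPM in the controls and 19.1 and 26.2 CPM with USP12, so its groups did not overlap in the upward direction (log2 fold change 0.72, SE 0.47, adjusted p 0.867 by edgeR, and 0.46 without control replicate 1). ABCG1, which passes cholesterol on to mature high-density lipoprotein, was at 36.8 and 25.5 CPM in the controls and 18.7 and 28.4 CPM with USP12, where the groups overlapped (log2 fold change -0.40, SE 0.46), and the estimate was -0.12 without control replicate 1 as well as without USP12 replicate 1. The surfactant transporter ABCA3 was at 115 and 77.9 CPM in the controls and 76.2 and 77.9 CPM with USP12. Control replicate 1 alone stood apart for ABCA3, and the log2 fold change of -0.32 (SE 0.38) became -0.01 without it. ABCG4, a sterol exporter of nervous tissue, was at 5.07 CPM in control replicate 1 and at 0.432 to 0.97 CPM in the other 3 libraries. Its estimate of -2.06 (SE 1.04), the most negative of the family, became -0.33 without control replicate 1.

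Drug and conjugate exporters differed among themselves in direction. Of the 8 tested, 5 had positive and 3 negative estimates, against 46.4% and 53.6% of all genes, with a median log2 fold change of 0.32. ABCG2 (ENSG00000118777, chr4:88090150-88231628, minus strand), the breast cancer resistance protein that exports urate, porphyrins and many drugs, was at 30.8 and 45.9 CPM in the controls and 15.6 and 15.8 CPM with USP12. Both USP12 libraries were at close to the same level and below both controls, 2.44-fold lower on average (log2 fold change -1.29, SE 0.44, unadjusted p 0.0255, adjusted p 0.512 by edgeR). Its estimate was -0.94 against control replicate 1 alone and -1.55 against control replicate 2 alone, with adjusted p of 0.0269 and 0.00887, and -1.27 or -1.30 without USP12 replicate 1 or 2, with an adjusted p of 1.0 each time.

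ABCC4, which exports cyclic nucleotides and prostaglandins, was at 44.1 and 71.4 CPM in the controls and 94.9 and 112 CPM with USP12. The groups did not overlap, and the level was 1.79-fold higher (log2 fold change 0.84, SE 0.40, adjusted p 0.761 by edgeR), or 1.25 on the log2 scale against control replicate 1 alone and 0.53 against control replicate 2 alone. ABCC1 was at 287 and 259 CPM in the controls and 364 and 387 CPM with USP12. Replicates of ABCC1 lay close together in both groups, which did not overlap, and the log2 fold change of 0.46 (SE 0.32, adjusted p 0.881 by edgeR) stayed between 0.42 and 0.54 when any 1 library was left out.

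ABCC2 was at 73.9 CPM in control replicate 1 and at 256 CPM in control replicate 2, with 236 and 281 CPM in the USP12 libraries. Control replicate 1 alone was low, and the log2 fold change of 0.65 (SE 0.60) was 0.01 without it but 1.84 with it as the single control. ABCC3 was at 897 and 693 CPM in the controls and 621 and 695 CPM with USP12, with overlapping groups (log2 fold change -0.27, SE 0.32, adjusted p 0.944 by edgeR), and the estimate was -0.07 without control replicate 1. The remaining members were ABCC5, an exporter of cyclic nucleotides and haem, at 0.25, ABCC6, the transporter lost in pseudoxanthoma elasticum, at 0.38, and ABCC10 at -0.41 on the log2 fold change scale, all with overlapping groups. Without control replicate 1 they were 0.25, 0.73 and 0.49, and ABCC5 was -0.14 without USP12 replicate 2. Reads of ABCC6 may be shared with its pseudogenes ABCC6P1, at 31 to 51 counts, and ABCC6P2, at 0 to 14 counts, so its value is uncertain.

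The half-transporters of mitochondria and the haem and iron-sulphur pathway had a median log2 fold change of -0.21 over 4 genes. ABCB6, a porphyrin transporter, was at 30.9 and 28.2 CPM in the controls and 19.9 and 20.8 CPM with USP12. Its replicates were close and its groups did not overlap (log2 fold change -0.54, SE 0.41, adjusted p 0.899 by edgeR), and the estimate lay between -0.57 and -0.47 with any 1 library left out. However, 54.6% of its exon length overlaps another annotated gene on the same strand, so its counts are uncertain. ABCB8 and ABCB10, of the inner membrane of mitochondria, had estimates of -0.38 and 0.24 with overlapping groups, or 0.11 and -0.31 without control replicate 1.

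ABCB9, a lysosomal peptide transporter, was at 22.8 and 10.1 CPM in the controls and 7.85 and 7.97 CPM with USP12. The groups did not overlap, yet control replicate 2 lay nearer to the USP12 libraries than to control replicate 1, and the log2 fold change of -1.06 (SE 0.55, adjusted p 0.804 by edgeR) was -0.36 without control replicate 1. Part of its exons is overlapped by genes on the opposite strand, ENSG00000256028 over 20.7%, OGFOD2 over 12.5% and ARL6IP4 over 12.0% of its length, and whether the counting used strand is not given in the sources used here. The antigen peptide transporter, a dimer of TAP1 and TAP2 in the endoplasmic reticulum, is a close relative of ABCB9 and carries no ABC symbol. TAP1 was at 69.2 and 55.4 CPM in the controls and 31.3 and 36.2 CPM with USP12, below both controls (log2 fold change -0.89, SE 0.38, adjusted p 0.688 by edgeR). TAP2 was at 30.1 and 65.9 CPM in the controls and 31.6 and 35.0 CPM with USP12, where the groups overlapped (-0.53, SE 0.49), and the estimate was -0.98 without control replicate 1. CFTR, the chloride channel of the ABCC subfamily, had 24 and 5 counts in the controls and 0 and 2 with USP12 and did not pass the filter.

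In the ABCD subfamily 3 genes were tested, with a median log2 fold change of -0.11, or 0.30 without control replicate 1. ABCD4, a lysosomal partner in cobalamin release, was at 27.1 and 14.9 CPM in the controls and 27.2 and 27.8 CPM with USP12, so that control replicate 1 was almost level with the USP12 libraries (log2 fold change 0.39, SE 0.47, and 0.05 against control replicate 1 alone). ABCD3, a peroxisomal importer of branched-chain and bile acid precursors, was at 15.5 and 28.1 CPM in the controls and 20.3 and 20.2 CPM with USP12, between the controls (log2 fold change -0.11, SE 0.48, and -0.47 without control replicate 1).

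The estimates of the 4 soluble members ranged from -0.32 to 0.16. ABCE1, which splits ribosomes after termination, was at 28.5 and 85.2 CPM in the controls and 58.2 and 57.5 CPM with USP12. Both USP12 libraries lay between the controls, and the log2 fold change of 0.02 (SE 0.56) was 1.05 against control replicate 1 alone and -0.56 against control replicate 2 alone. ABCF1, a translation initiation factor partner, was at 78.7 to 101 CPM over the 4 libraries, and ABCF2 at 104 to 137 CPM, each with a log2 fold change of 0.16 (SE 0.35), or 0.01 and 0.37 without control replicate 1. ABCF2 overlaps the readthrough gene ABCF2-H2BK1 over 37.1% of its exon length. ABCF3 had an estimate of -0.32, or -0.03 without control replicate 1.

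The controls differed from each other by more than 1 on the log2 scale in 10 of the 31 ABC genes, with control replicate 1 lower in 5 and higher in 5, and the USP12 libraries did so in 1, ABCB4. Across these 31 genes, log2 ratios had an SD of 1.08 between controls and 0.58 between USP12 libraries. Counts of called genes moved with the library left out. Without control replicate 1, ABCA2 and ABCG2 fell at an adjusted p under 0.05 (edgeR, 2 of 31 lower and 0 higher, against 5.74% and 4.73% of all genes). Without control replicate 2, 8 of 32 fell and 6 of 32 rose, against 16.3% and 15.9% of all genes, and without USP12 replicate 1 or 2 0 of 33 were called each time, against at most 0.174% of all genes in a direction. By the criterion of fold and unadjusted p, ABCG2 alone was lower without control replicate 1, against 8.01% of all genes. Without control replicate 2, ABCA2 and 4 other ABC genes were lower and 6 were higher, against 13.3% and 15.6% of all genes. No ABC gene met it without USP12 replicate 1, against 1.86% of all genes lower, and ABCB4 alone was lower without USP12 replicate 2, against 2.09%.

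**Figure D3:**
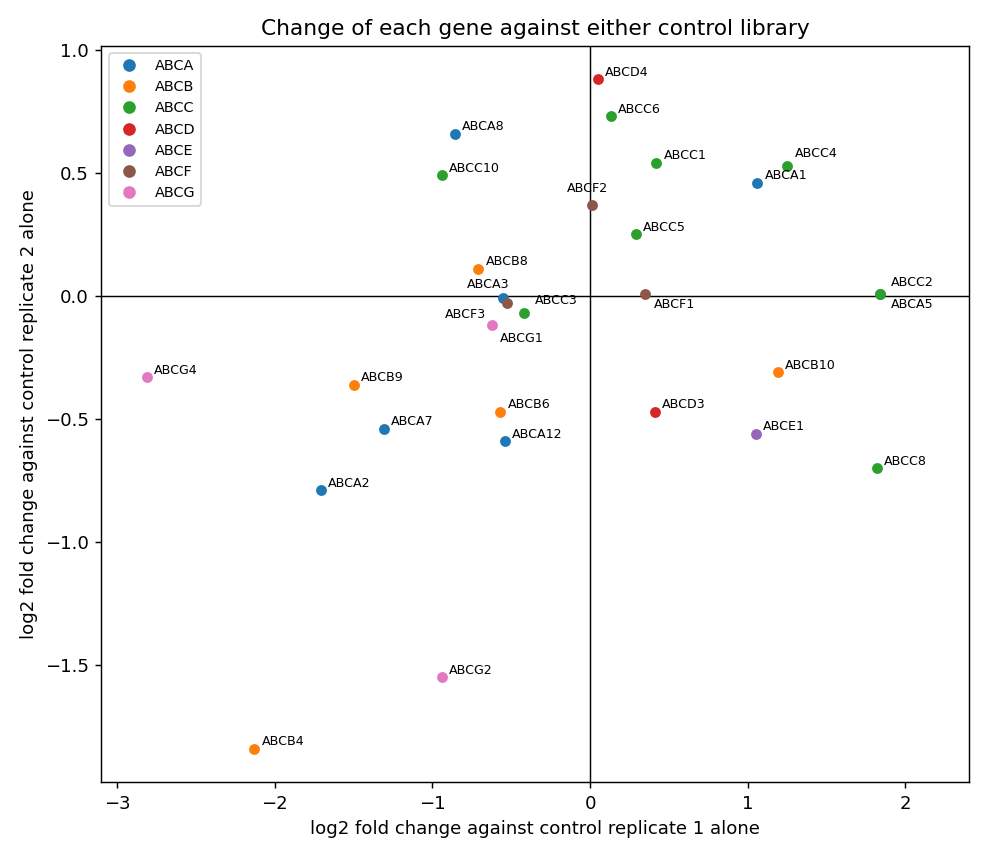
Log2 fold change of both USP12 libraries against control replicate 1 alone (horizontal axis) and against control replicate 2 alone (vertical axis) for 29 of the 31 tested ABC genes, coloured by subfamily. The 2 comparisons share the USP12 libraries; ABCA2 (-1.71 and -0.79) and ABCG2 (-0.94 and -1.55) lie low on both axes, while ABCC2 and ABCA5 (both 1.84 and 0.01) lie far from 0 on 1 axis.

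Nuclear receptors and other factors known to act on ABC genes were read beside them. Of 17 listed, 15 were tested and 13 had negative estimates, against 53.6% of all genes. The criterion was met by 0 of them, against 4.41% of all genes lower and 2.92% higher. Their median log2 fold change was -0.44, or -0.02 without control replicate 1. Leaving out that library turned NR1H2, RXRA, RXRB, PPARD and KEAP1 from negative to positive, at 0.17, 0.11, 0.39, 0.12 and 0.2. The xenobiotic receptors NR1I2 and NR1I3, known for inducing ABCB1 and ABCC2 in liver, were at 0 in every library. AHR was at 47.7 and 135 CPM in the controls and 57.6 and 62.0 CPM with USP12, and NFE2L2, which encodes NRF2, was at 29.0 and 64.2 CPM and at 43.6 and 42.7 CPM. For both genes the USP12 libraries lay between the controls. Another annotated gene overlaps AHR on the same strand over 29.5% of its exon length. NFE2L2 is overlapped by HNRNPA3 on the opposite strand over 23.4% and by a noncoding gene on the same strand over 13.6%. The counts of both genes are therefore uncertain.

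Solute carriers for drugs, bile acids and organic ions, most of them uptake carriers, were mostly too low to test, with 10 of 26 passing the filter and a median log2 fold change of 0.19, or -0.02 without control replicate 1. By the same criterion 4 were lower and 1 was higher, against 4.41% and 2.92% of all genes, and 0 passed an adjusted p of 0.05 in edgeR's quasi-likelihood test. SLC51B, a subunit of a basolateral bile acid and steroid transporter that carries chiefly outward, was at 16.6 and 18.7 CPM in the controls and 2.16 and 2.22 CPM with USP12. Its replicates were close in both groups, which did not overlap (log2 fold change -3.01, SE 0.49, adjusted p 0.182 by edgeR), and its partner SLC51A was at 0 in every library. It passed the threshold without the filter, with DESeq2's Wald test, with edgeR's exact test and with the replicate block, at adjusted p of 0.00147, 0.000105, 0.000224 and 0.00205. It did not pass with DESeq2 size factors, at least 10 counts in every sample or legacy=FALSE, at 0.178, 0.237 and 0.178 by edgeR's quasi-likelihood test. SLCO4A1, a thyroid hormone importer, was at 52.5 and 11.9 CPM against 5.04 and 5.13 CPM, and SLCO2B1, an importer of steroid sulphates, at 10.7 and 2.49 against 0.792 and 1.32 CPM, where the controls differed widely. Their log2 fold changes of -2.66 and -2.64 were -1.22 and -1.23 without control replicate 1. In the 4 alternatives that SLC51B passed, SLCO4A1 had adjusted p of 0.0024, 0.00667, 0.0477 and 0.0331, while SLCO2B1 stayed above 0.05. In the alternatives that SLC51B did not pass, SLCO4A1 was at 0.403, 0.495 and 0.369 by edgeR's quasi-likelihood test. Among apolipoproteins and other lipid acceptors 6 of 12 were tested, with a median of -0.70, or 0.62 without control replicate 1. APOD alone met the criterion, on the lower side, against 4.41% of all genes lower and 2.92% higher. It was at 11.9 and 9.09 CPM in the controls and 1.87 and 0.623 CPM with USP12 (log2 fold change -3.06, SE 0.71, adjusted p 0.302 by edgeR). Without the filter, with DESeq2's Wald test, with edgeR's exact test and with the replicate block the adjusted p of APOD was 0.0045, 0.00444, 0.00896 and 0.00438. With DESeq2 size factors or legacy=FALSE it was 0.296 or 0.248 by edgeR's quasi-likelihood test.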

How the data were processed

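Polyadenylated RNA of 4 A549 libraries was sequenced with a stranded kit. The authors deposited raw counts per gene, and per the labels the reads were mapped to GRCh38 with HISAT2 2.0.4 and counted with StringTie 1.3.0, in an annotation whose release is not given in the sources used here. Coordinates, exon lengths and biotypes were taken from GENCODE 44, where 49659 of 50868 identifiers matched.

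All 4 libraries entered a single quasi-likelihood fit in edgeR 4.0.16 (R 4.3.3), with low genes removed by filterByExpr, TMM scaling and p-values adjusted by Benjamini-Hochberg over 15222 genes. An approximate SE was derived from each log2 fold change and its F statistic. Exon length is the union of annotated exons. Promoters were taken from RefSeq. Alternatives were DESeq2 1.42.0 size factors and Wald test, edgeR's exact test, other filters, a replicate block and leaving out each library. The fit was run on simulated data in which both groups shared each gene's dispersion. Such data lack the unequal spread seen here between controls and between USP12 libraries, so that run does not cover it. The members and lists were chosen with earlier results of these data known. Genes named were USP12, members past the criterion of fold and unadjusted p, members with non-overlapping groups and a log2 fold change of 1 or more in size, the highest member per subfamily, a short list of well-known transporters and, from each other list, up to 4 genes past the criterion. A few genes counted in the totals are not reported here by name. Other members and markers were named after their values were seen.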

Additional observations from a re-analysis of the deposited data

How the results depend on the processing

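No ABC gene passed an adjusted p of 0.05 with DESeq2 size factors, no filter, at least 10 counts in every sample, DESeq2's Wald test, edgeR's exact test, edgeR with legacy=FALSE or the replicate block. Adjusted p of ABCA2 over these ranged from 0.163 to 0.548 and of ABCG2 from 0.232 to 0.61. Over all genes the calls moved from 0 to 361 lower and 167 higher without the filter, 273 and 133 with DESeq2's Wald test, 262 and 167 with edgeR's exact test, and 251 and 153 with the replicate block. In these fits USP12 passed the threshold, with log2 fold changes of 6.33, 6.31, 6.32 and 6.43. The median of the ABC genes was -0.19 with at least 10 counts and -0.14 with the replicate block, and with at least 10 counts the medians were -0.50 for lipid export, -0.35 for nuclear receptors and -0.62 for uptake transporters. Only ABCC8 changed sign among these alternatives (-0.02 with legacy=FALSE). Same-numbered libraries deviated together with r = 0.152 across genes, with 2 pairs, so the labels give them a shared number only.

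Leaving out 1 library moved USP12 between 5.85 and 7.06, ABC genes called between 0 and 8 lower and 0 and 6 higher, all genes called between 28 and 2612 lower and 12 and 2550 higher, and ABC genes past the criterion between 0 and 5 lower and 0 and 6 higher, against 1.86% to 13.3% and 0.985% to 15.6% of all genes. The median of ABC genes lay between -0.42 and -0.01, of lipid export between -0.96 and -0.43, of drug efflux between 0 and 0.55, of mitochondrial genes between -0.34 and -0.12, of ABCD genes between -0.11 and 0.30, of soluble members between -0.01 and 0.18, of nuclear receptors between -0.48 and -0.02, of uptake transporters between -0.02 and 0.26, of apolipoproteins between -1.47 and 0.62, of glutathione genes between -0.44 and 0.08, of ribosome recycling between -0.25 and 0.58 and of peroxisome import between -0.12 and 0.11. Estimates that changed sign when a library was left out included ABCA8 (-0.86 to 0.66), ABCB8 (-0.71 to 0.11), ABCB10 (-0.31 to 1.19), ABCC5 (-0.14 to 0.57), ABCC8 (-0.70 to 1.82), ABCC10 (-0.94 to 0.49), ABCD3 (-0.47 to 0.41), ABCE1 (-0.56 to 1.05) and TAP2 (-0.98 to 0.17). The cause was not tested. In these fits the lone library of a group is assumed to vary like the 2 of the other group. With 2 libraries a group and controls that differ, changes of the size seen in most ABC genes could not be told from the spread between libraries.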

Other observations

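Partners of the ABC genes outside membrane transport were read from the same fit. Of 14 tested genes for glutathione synthesis and conjugation, which supplies the substrates of ABCC1 and ABCC2, 0 met the criterion of fold and unadjusted p. Over all genes 4.41% met it lower and 2.92% higher. The median log2 fold change of the 14 genes was -0.19. GCLM, the modifier subunit of the enzyme that limits glutathione synthesis, was at 20.2 and 106 CPM in the controls and 88.9 and 94.4 CPM in the USP12 libraries, and GCLC, its catalytic subunit, at 39.9 and 105 against 76.1 and 119 CPM. In both genes control replicate 1 was the lowest library, as it was for ABCC2, and both were named after their values were seen. Across the tested glutathione genes the median log2 ratio of control replicate 1 over control replicate 2 was positive, at 0.73. Of 10 ribosome recycling and translation partners of ABCE1 and ABCF1, 0 met the criterion, with a median of 0.13. Of 7 peroxisome import partners 0 did, with a median of 0.01, beside the same shares of all genes. KCNJ8 and KCNJ11, the potassium channel pores that pair with ABCC8 and ABCC9, had log2 fold changes of 0.77 and -0.55, with overlapping groups. Their estimates were 2.08 and 0.59 without control replicate 1, so KCNJ11 changed sign.

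A further 15 symbols begin with ABC but name pseudogenes or antisense genes. One of them, ABCA11P, had 32 and 30 counts in the controls and 1 and 25 counts in USP12 replicates 1 and 2. Levels of neighbouring members on a chromosome were far apart in some pairs and both low in others. ABCC1 and ABCC6 lie 6.3 kb apart on chromosome 16, at 37.1 and 0.54 CPM per kb, and ABCB4 and ABCB1, which are next to each other on chromosome 7, reached at most 23 and 5 counts in a library.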
